A study of Mus musculus with 8 samples.

Results

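The genes described here encode the synaptonemal complex, the chromosome axis it is built on, the HORMA-domain proteins of that axis and the ATPase that removes them. They were taken by symbol and comprise *Sycp2* and *Sycp3* (axial element), *Sycp1* (transverse filament), *Syce1*, *Syce2*, *Syce3* and *Tex12* (central element), *Hormad1* and *Hormad2* (HORMA-domain proteins) and *Trip13* (remodeler), which is 10 of the 25239 gene symbols counted. RNA-Seq was performed on whole fetal ovaries at E14.5, with 4 libraries per genotype on a C57BL/6 background. Control embryos were *Bmpr1a* fl/fl, and *Bmpr1a*-cKO embryos carried Oct4-Cre (Cre/WT) in addition to the same floxed alleles. Each library held the pooled ovaries of 2 embryos, from 8 embryos per genotype across 6 litters, and the controls were littermates of the cKO embryos. All dams had received 1 mg of 4-hydroxytamoxifen and 0.5 mg of progesterone on 3 occasions (9.5 dpc, then 10.5 dpc, then 11.5 dpc), so every embryo was exposed to both agents. The control embryos carried no Cre, so the loss of *Bmpr1a* and the presence of an active Cre cannot be told apart in these libraries. Recombination was directed to germ cells through *Oct4*, and the somatic cells of the cKO ovary, which were also sequenced, therefore kept the gene by design. The comparison asks how transcripts of the meiotic chromosome axis and of synapsis stood in ovaries whose germ cells were to lose this BMP receptor.

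In meiotic prophase each pair of sister chromatids is folded into loops along a protein axis made of cohesins, SYCP2, SYCP3 and HORMAD proteins. When homologous chromosomes synapse, SYCP1 dimers reach across from each axis like the teeth of a zipper, and their heads meet in the central element, which SYCE1, SYCE2, SYCE3 and TEX12 hold together. The axes are then termed lateral elements, and TRIP13 strips HORMAD1 and HORMAD2 from them once synapsis has occurred. In the mouse fetal ovary germ cells begin this programme at around the stage sampled here, and within the ovary the complex is built in germ cells only.

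Total counts ran from 8562961 to 15365052 per library, lowest in *Bmpr1a*-cKO library 1, and 3 counts corresponded to between 0.189 and 0.358 CPM, the count per 1000000 counts of a library. Levels are given as CPM after TMM scaling of library sizes. All 8 germ cell markers were detected, and their summed levels were 634 to 846 CPM in control and 647 to 1030 CPM in *Bmpr1a*-cKO libraries, and 2 of them (*Dazl*, *Dnd1*) were higher and 1 (*Mael*) was lower in *Bmpr1a*-cKO ovaries. Pregranulosa markers summed to 1410 to 1730 CPM in control and 1240 to 1460 CPM in cKO libraries. *Kitl*, the largest part of these sums (532 to 736 CPM in control), did not pass (FDR = 0.29, edgeR). Of the 8, 6 had an FDR below 0.05 and were lower, with *Foxl2* passing the fold threshold as well. The 4 Sertoli markers summed to only 11.4 to 12.9 and 8.7 to 9.44 CPM in control and cKO libraries, with *Sox9* lower by the FDR alone. The 3 macrophage markers summed to 20.2 to 24.4 and 26.5 to 32.1 CPM, with *Adgre1* upregulated and *Csf1r* higher by the FDR alone. Stromal and endothelial lists (4 genes each) had no gene below an FDR of 0.05, nor had the mesonephric list, while 1 of 4 steroidogenic genes (*Hsd3b1*) was lower. Among 4 erythroid genes the 3 globins are listed at 0 in every library, and *Alas2* ranged from 20.9 to 44.6 CPM. Over all genes tested, 12.5% were lower and 17.3% higher by the FDR alone, and 4.06% and 6.11% with the fold threshold as well. The part of these cell type markers in the results below was not tested. *Bmpr1a* itself stood at 199, 237, 220 and 216 CPM in control and 185, 195, 190 and 209 CPM in *Bmpr1a*-cKO libraries (Log2FC −0.16, FDR = 0.0692, edgeR), a count over the whole gene and the whole ovary that neither shows nor denies recombination in germ cells.

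All 10 genes were detected above the low-count filter, and 5 of them, *Sycp2*, *Sycp3*, *Syce1*, *Syce3* and *Tex12*, were downregulated in *Bmpr1a*-cKO ovaries. A gene was called differentially expressed when its absolute Log2FC exceeded 0.5 with an FDR below 0.05 in the quasi-likelihood F test of edgeR, fitted on all 14249 genes that passed the filter, and 4.06% of these genes were called lower. None of the 10 was called higher, against 6.11% of all genes, although *Trip13* was when libraries were scaled to germ cell markers (Log2FC 0.55, FDR = 0.0466, edgeR). By the FDR alone 8 were lower and 1, *Trip13*, was higher, where 12.5% and 17.3% of all genes tested were lower and higher. Every *Bmpr1a*-cKO library lay below every control library for the 5 downregulated genes (11.7% of all genes), every *Bmpr1a*-cKO library lay above for *Trip13* (16.1% of all genes), and the groups overlapped for the other 4. The median Log2FC of the 10 genes was −0.66, and that of all genes tested was −0.004. In bulk ovaries fewer germ cells in meiosis and less transcript per germ cell cannot be told apart. The 4 libraries of a genotype are separate pools of animals, and the p-values measure the spread between these pools. Litters were shared between genotypes and are not given per pool, so the p-values do not account for them.

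**Figure D1:**
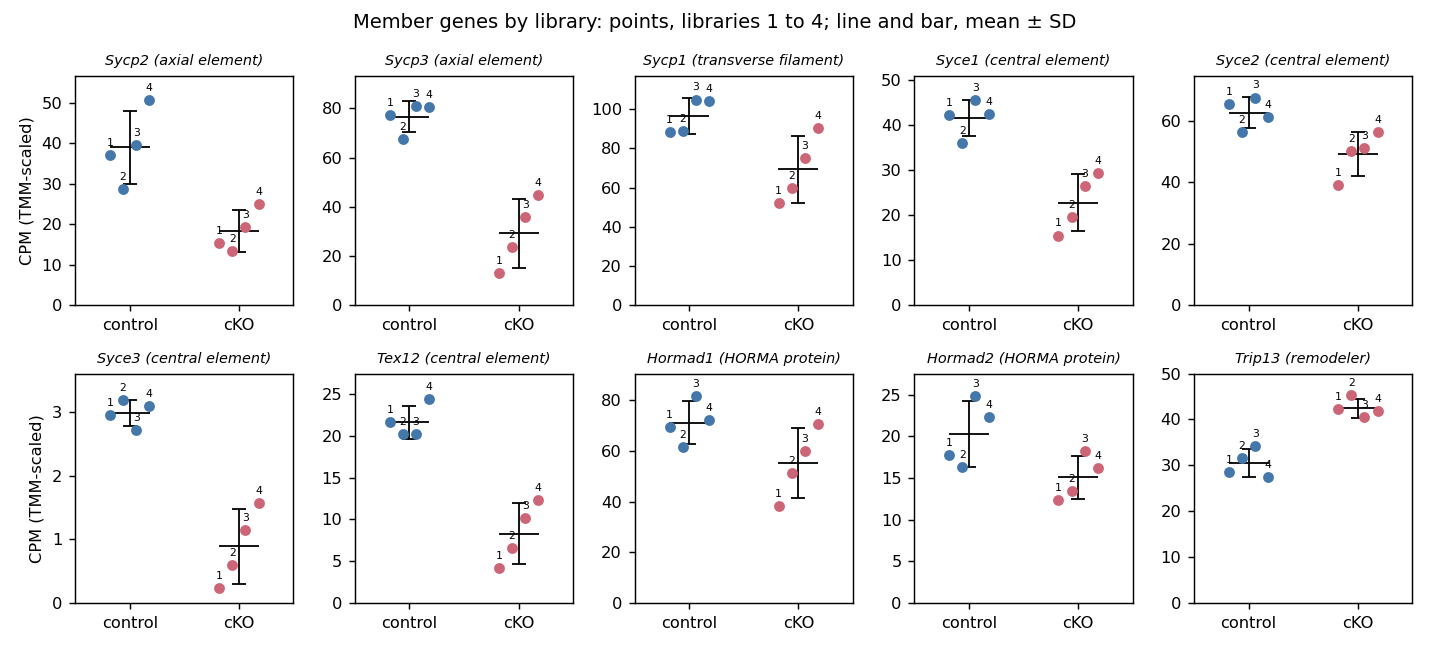
Levels of the 10 genes in each library, in CPM after TMM scaling (vertical axes, each from 0), for control and *Bmpr1a*-cKO (cKO) ovaries; points are libraries numbered 1 to 4, with the mean and SD of 4. The points of the genotypes do not overlap for *Sycp2*, *Sycp3*, *Syce1*, *Syce3*, *Tex12* and *Trip13*, and *Trip13* is the only gene whose cKO points lie higher.

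The axial element genes both fell to less than 0.5 of the control level. *Sycp3*, whose product coats the axis and is the usual cytological marker of it, was at 77.4, 67.7, 81.0 and 80.6 CPM in control libraries and at 13.0, 23.5, 35.8 and 45.0 CPM in *Bmpr1a*-cKO libraries. Control pools lay within a narrow band, whereas the lowest and the highest cKO pool differed more than 3-fold. The Log2FC was −1.36 (SE 0.22, 95% interval −1.83 to −0.88, FDR = 0.000322, edgeR), and 0.59% of all genes tested had a lower Log2FC. *Sycp3* (chr10:88459569-88473236, plus strand, mm10) shares exon bases with *Chpt1*, a phospholipid synthesis gene on the opposite strand that was higher in *Bmpr1a*-cKO ovaries by the FDR alone (Log2FC 0.33, FDR = 0.0134, edgeR), and whether the counting used strand is not given in the sources used here. *Sycp2*, the partner through which SYCP3 joins the axis, was at 37.2, 28.6, 39.6 and 50.6 CPM in control and 15.3, 13.3, 19.4 and 25.1 CPM in *Bmpr1a*-cKO libraries. Here the control pools were spread almost as widely as the cKO pools (SD of log2 CPM 0.336 and 0.399), and the sets still did not touch. Its Log2FC was −1.09 (SE 0.18, 95% interval −1.47 to −0.70, FDR = 0.000357, edgeR). The gene lies at chr2:178345293-178407685 on the minus strand and overlaps no other annotated gene.

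The transverse filament gene *Sycp1* was less reduced. Its levels were 88.2, 89.0, 105 and 104 CPM in control libraries and 52.2, 59.6, 75.2 and 90.5 CPM in *Bmpr1a*-cKO libraries, so that cKO library 4 reached into the control range. The Log2FC of −0.47 (SE 0.13, 95% interval −0.74 to −0.19, FDR = 0.0127, edgeR) passed the FDR and fell just short of the fold threshold. Without cKO library 2 the FDR was 0.0536. The gene was called lower without control library 1 or 2 (Log2FC −0.51 in each), cKO library 3 (−0.50) or cKO library 4 (−0.63), and with scaling by library size alone (−0.52, FDR = 0.0068). *Sycp1* lies at chr3:102818499-102936100 on the minus strand.

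The 4 central element genes were all lower on average, by very different amounts. *Syce3*, which links SYCP1 to the rest of the central element, had the most negative Log2FC of the 10 genes and also the lowest counts, with 36, 36, 29 and 49 reads in control and 2, 8, 11 and 23 reads in *Bmpr1a*-cKO libraries. These are 2.96, 3.19, 2.72 and 3.09 CPM against 0.238, 0.595, 1.15 and 1.57 CPM, and the count in cKO library 1 was below 3. The Log2FC was −1.66 (SE 0.32, 95% interval −2.33 to −0.98, FDR = 0.0011, edgeR), with the widest interval of the set. *Tex12*, which assembles with SYCE2 into the fibres of the central element, was at 21.7, 20.2, 20.2 and 24.4 CPM in control and 4.17, 6.54, 10.2 and 12.3 CPM in cKO libraries, with no overlap. Its Log2FC was −1.35 (SE 0.20, 95% interval −1.78 to −0.92, FDR = 0.000151, edgeR). *Syce1*, a coiled-coil protein that bridges SYCE3 and SIX6OS1, went from 42.3, 36.0, 45.7 and 42.6 CPM to 15.5, 19.7, 26.6 and 29.4 CPM. That was a Log2FC of −0.85 (SE 0.14, 95% interval −1.16 to −0.55, FDR = 0.000422, edgeR). *Syce2*, the fibre partner of TEX12, was at 65.6, 56.3, 67.7 and 61.5 CPM in control and 39.2, 50.4, 51.1 and 56.6 CPM in *Bmpr1a*-cKO libraries. The cKO values were the lower set but for library 4, which stood just above the lowest control. Its Log2FC of −0.34 (SE 0.095, 95% interval −0.54 to −0.14, FDR = 0.0142, edgeR) passed the FDR and not the fold threshold. The 4 genes lie on different chromosomes, *Syce3* at chr15:89390174-89410503, *Tex12* at chr9:50556819-50561325 and *Syce1* at chr7:140777229-140787852 on the minus strand, and *Syce2* at chr8:84872111-84888221 on the plus strand. *Tex12*, *Syce1* and *Syce2* each overlap a gene on the opposite strand without sharing an exon base.

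Neither HORMA-domain gene was called with all 8 libraries. *Hormad1*, whose product marks unsynapsed axes and recruits the break machinery to them, was at 69.6, 61.5, 81.7 and 72.1 CPM in control and 38.2, 51.3, 60.1 and 70.8 CPM in *Bmpr1a*-cKO libraries. The cKO pools ran from well under the control range to within it. The Log2FC was −0.36 (SE 0.14, 95% interval −0.65 to −0.07, FDR = 0.0604, edgeR), and the gene was called lower only when cKO library 4 was left out (Log2FC −0.51, FDR = 0.0079). Without control library 2 it passed the FDR (0.0361) and not the fold threshold (Log2FC −0.43). Without cKO library 1 the Log2FC was −0.23 (FDR = 0.100). *Hormad2*, its paralogue in the signalling from unsynapsed axes, had control levels of 17.8, 16.3, 24.9 and 22.3 CPM and *Bmpr1a*-cKO levels of 12.4, 13.5, 18.2 and 16.2 CPM. The Log2FC was −0.43 (SE 0.14, 95% interval −0.73 to −0.13, FDR = 0.0314, edgeR). This FDR was not held without control library 3 (0.0902), control library 4 (0.0924), cKO library 1 (0.0568) or cKO library 2 (0.105). In the other direction the gene was called lower without control library 2 (Log2FC −0.53, FDR = 0.00995) and without cKO library 3 (Log2FC −0.52, FDR = 0.0212). *Hormad1* lies at chr3:95559677-95587671 on the plus strand and *Hormad2* at chr11:4345814-4441105 on the minus strand, with no gene overlapping either.

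*Trip13* differed from the other 9 in direction. TRIP13 is a ring-shaped ATPase that opens HORMA domains, those of the HORMADs in meiosis and that of MAD2 at the spindle checkpoint of dividing cells, so its transcript is not particular to meiosis. It was at 28.6, 31.5, 34.2 and 27.4 CPM in control libraries and at 42.2, 45.4, 40.5 and 41.8 CPM in *Bmpr1a*-cKO libraries, all of which lay above all controls. The Log2FC of 0.49 (SE 0.08, 95% interval 0.32 to 0.66, FDR = 0.000317, edgeR) was just under the fold threshold, which it passed without control library 3 (0.54) or cKO library 3 (0.51). *Trip13* occupies chr13:73911347-73937784 on the minus strand. A small gene on the same strand, *Gm25197*, lies within it and shares no exon base.

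**Figure D2:**
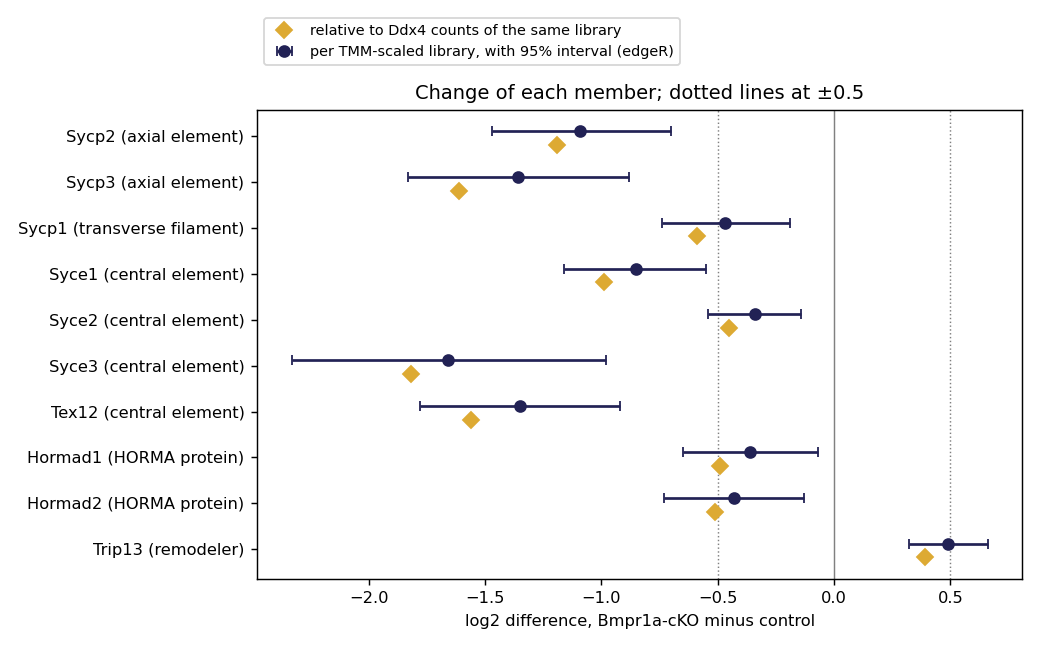
Log2 difference between *Bmpr1a*-cKO and control ovaries for each gene (horizontal axis), per scaled library with its 95% interval from edgeR (circles) and relative to *Ddx4* counts of the same library (diamonds), n = 4 libraries per genotype; dotted lines mark ±0.5. The circles run from −1.66 for *Syce3* to 0.49 for *Trip13*, and 9 of the 10 diamonds lie to the left of 0.

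The genes do not contribute equally to the transcript pool, and their order changed between the genotypes. Per kilobase of exon, *Sycp3* had the highest level in control ovaries at 60.7 ± 4.89 CPM per kb (SD, n = 4), and *Hormad1* followed at 41.2 ± 4.81. *Syce2* (31.9 ± 2.55), *Syce1* (28.5 ± 2.80) and *Sycp1* (27.1 ± 2.54) overlapped in range from one to the next, but *Syce2* did not overlap with *Hormad1*. *Tex12* came next at 21.3 ± 1.96, without overlap with *Sycp1*. The lowest 4, again with overlapping ranges from one to the next, were *Trip13* (8.76 ± 0.878), *Hormad2* (7.44 ± 1.46), *Sycp2* (6.53 ± 1.52) and *Syce3* (5.41 ± 0.370). In *Bmpr1a*-cKO ovaries *Hormad1* was highest at 31.9 ± 7.98 CPM per kb, followed by *Syce2* (25.1 ± 3.70), *Sycp3* (23.2 ± 11.1), *Sycp1* (19.5 ± 4.78), *Syce1* (15.6 ± 4.35), *Trip13* (12.2 ± 0.595) and *Tex12* (8.16 ± 3.57). These neighbours all overlapped in range. *Hormad2* (5.52 ± 0.962) and *Sycp2* (3.06 ± 0.874) were the only neighbours that did not, and *Syce3* stayed last at 1.61 ± 1.07. The exon length used here is that of all annotated exons of a gene together, so the scale is approximate for genes with several transcripts.

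Because the reductions were unequal, ratios of 2 genes within a library were tested, which need no scaling between libraries. They use the counts that gave the Log2FC values, and several share *Sycp3* or *Hormad1*. Their p-values therefore add no independent evidence that the changes differed. Of 7 such ratios 5 separated the genotypes, and the share among other pairs of genes was not computed. The log2 ratio of *Sycp1* to *Sycp3* counts was 0.19, 0.39, 0.37 and 0.36 in control and 1.99, 1.34, 1.07 and 1.00 in *Bmpr1a*-cKO libraries, a rise of 1.02 (exact permutation test, two-sided, p = 0.0286, adjusted over the 7 ratios p = 0.04). That p is the smallest that 4 against 4 libraries can give. The log2 ratio of *Hormad1* to *Sycp3* went from −0.15, −0.14, 0.01 and −0.16 to 1.54, 1.12, 0.74 and 0.65, a rise of 1.12. Within the central element *Syce2* gained on *Tex12* by 1.11 and *Syce1* on *Syce3* by 0.82, and *Trip13* gained on *Hormad1* by 0.88 (exact permutation test, two-sided, p = 0.0286, adjusted p = 0.04 for each of these 4 ratios). Leaving out 1 control library raised the p of *Syce1* to *Syce3* and of *Trip13* to *Hormad1* to 0.0571 whichever control was omitted, and that of *Syce2* to *Tex12* when control library 4 was, with changes still at 0.72 or more in this exact permutation test. The genotypes stayed fully apart in each of these subsets. With groups of unequal size, full separation can give p = 0.0286 or 0.0571 in this exact permutation test, so the rise is not a loss of separation. The axial pair *Sycp2* and *Sycp3* did not pass the test, with a difference of 0.42 that rested on cKO library 1 (exact permutation test, p = 0.143, adjusted p = 0.167) and was 0.15 without it. For the HORMAD pair the difference was −0.02, from control ratios of −1.95 to −1.69 to cKO ratios of −2.11 to −1.60 (exact permutation test, p = 0.857, adjusted p = 0.857).

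**Figure D3:**
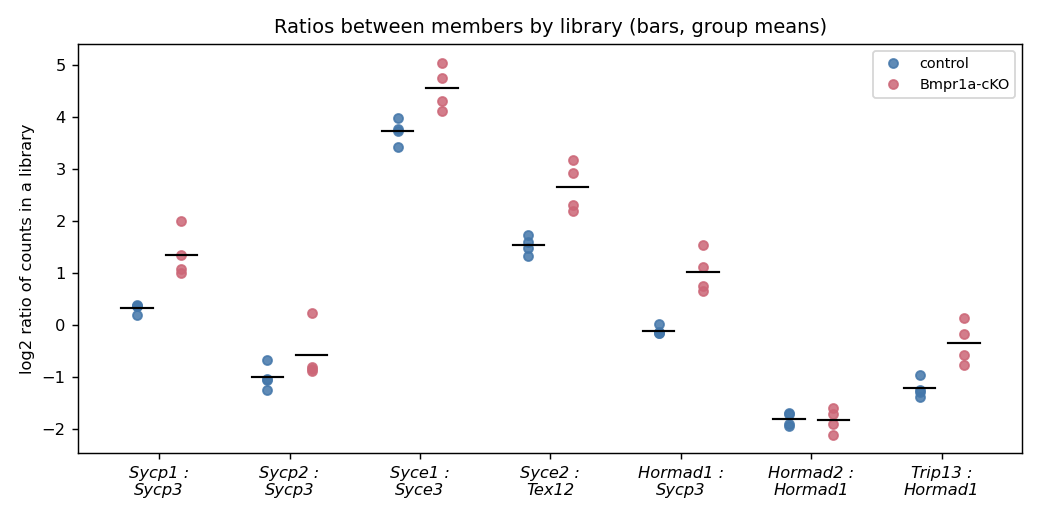
Log2 ratio of the counts of 2 genes in the same library (vertical axis) for 7 pairs (horizontal axis), with 1 point per library, 4 libraries per genotype, and bars at the group means. The genotypes are apart for 5 pairs, and overlap for *Sycp2* to *Sycp3* and *Hormad2* to *Hormad1*.

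Levels were also set against *Ddx4*, a germ cell helicase transcript, in the same library. *Ddx4* averaged 142 ± 21.9 CPM over control and 153 ± 32.3 CPM over cKO libraries (SD, n = 4, Log2FC 0.11, FDR = 0.561, edgeR). Relative to *Ddx4*, 8 of the 10 genes had all cKO values below all control values, where 3.23% of all genes tested did, with log2 differences from −0.45 for *Syce2* to −1.82 for *Syce3* (exact permutation test, two-sided, p = 0.0286, adjusted over the 10 genes p = 0.0318 for each). *Hormad1*, which overlapped between the genotypes per scaled library, was among them: its log2 ratio to *Ddx4* was −0.87, −1.30, −1.04 and −0.74 in control and −1.47, −1.70, −1.40 and −1.34 in cKO libraries. The *Sycp3* ratio was −0.72, −1.16, −1.05 and −0.58 in control and −3.00, −2.82, −2.15 and −1.99 in cKO libraries, a difference of −1.61. *Hormad2* differed by −0.51 with overlap (exact permutation test, p = 0.0857, adjusted p = 0.0857), and *Trip13* was higher by 0.39 without overlap (exact permutation test, p = 0.0286, adjusted p = 0.0318), as were 5.11% of all genes tested. Some separations were narrow: for *Syce2* the highest cKO ratio was −1.43 and the lowest control ratio −1.42. For *Trip13* the lowest cKO ratio was −2.10 and the highest control ratio −2.13, and the difference was 0.23 without cKO library 1. Its exact permutation p was 0.0571 with any 1 control library left out, as was that of *Hormad1* with any 1 cKO library left out. The p of *Syce2* was also 0.0571 without control library 1 or 4 or any 1 cKO library, that of *Sycp2* without cKO library 2 or 3, and that of *Sycp1* without cKO library 2 (exact permutation tests). In all these subsets the genotypes stayed fully apart, and groups of unequal size can give 0.0286 or 0.0571 under full separation (exact permutation tests). The ratio of *Hormad2* reached p = 0.0286 in the exact permutation test without control library 2. In edgeR with libraries scaled to *Ddx4*, the FDR was 0.129 for *Sycp1*, 0.368 for *Syce2*, 0.285 for *Hormad1* and 0.469 for *Trip13*.

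The *Bmpr1a*-cKO pools differed among themselves in a common order. Library 1 had the lowest level for 8 of the 10 genes and library 4 the highest for 8. The mean log2 CPM over the 10 genes was 5.06, 4.95, 5.20 and 5.18 in control libraries and 3.78, 4.15, 4.53 and 4.74 in cKO libraries. On the log2 scale the SD between libraries was larger in cKO than in control for 8 genes, for example 0.782 against 0.120 for *Sycp3*. It was 0.928 against 0.095 for *Syce3*, where the cKO value rests on only 2 to 23 reads. The SD was smaller in cKO for *Trip13* (0.069 against 0.143) and *Hormad2* (0.248 against 0.281). The share of all genes with this library order or a larger cKO SD was not computed, so whether either count is particular to these genes is not known. The summed germ cell markers of the 4 cKO libraries had the same order, at 647, 880, 898 and 1030 CPM, and the part of germ cell content in this spread was not tested. All 5 downregulated genes stayed called when any single library was left out.

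**Figure D4:**
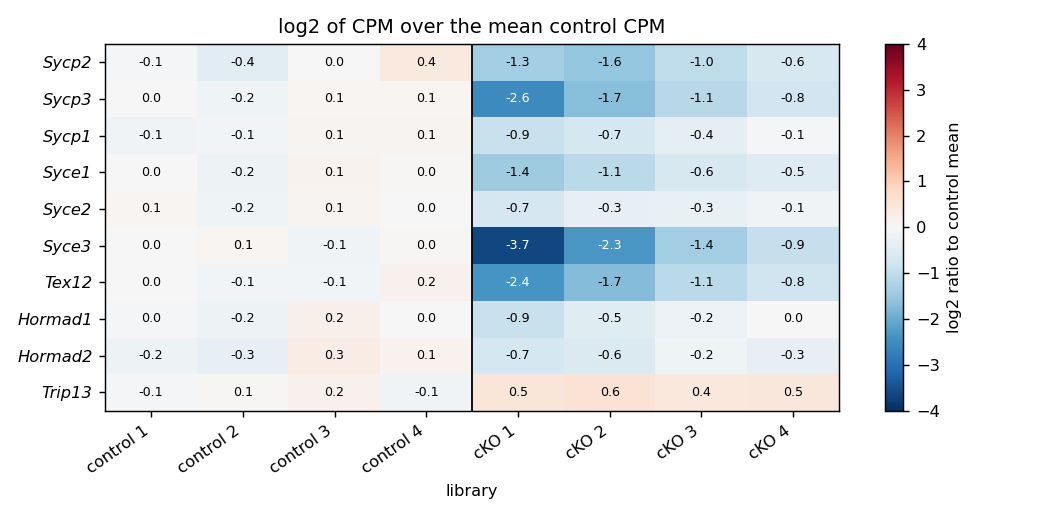
Log2 of each gene's CPM over its mean CPM in control ovaries (colour and printed value), for the 10 genes (rows) in the 4 control and 4 *Bmpr1a*-cKO (cKO) libraries (columns). The *Syce3*, *Sycp3* and *Tex12* rows are lowest in cKO library 1, and the *Trip13* row is above 0 in all 4 cKO libraries.

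The libraries also show which transcripts vary together once the genotype mean is removed. After the genotype mean was removed from log2 CPM, the 36 pairs among the 9 genes other than *Trip13* had a median correlation of 0.84 (0.53 to 0.98) over the 8 libraries, and *Trip13* had a median of −0.16 with them. With the mean of the other 9 genes the correlation was highest for *Syce1* (0.986) and *Sycp3* (0.982), and lower for *Hormad2* (0.710) and *Sycp2* (0.703). Among genes outside the set, those most like the mean of the 10 were *Glis1* (0.993), *Meioc* (0.989), *Cbwd1* (0.987), *Smc1b* (0.986) and *Zcwpw1* (0.985). *Meioc* acts with YTHDC2 in germ cells that enter meiosis, *Smc1b* is a meiotic cohesin subunit, and *Zcwpw1* encodes a histone methylation reader of meiotic recombination sites. No meiotic role is given here for *Cbwd1* or for *Glis1*, the most correlated. *Glis1* was low, at a mean of 2.9 CPM in control and 1.8 CPM in cKO libraries (Log2FC −0.65, FDR = 0.0468, edgeR). The same correlation was 0.921 for *Stra8*, 0.682 for *Ddx4* and 0.174 for *Rec8*. These values describe 8 points that share depth and germ cell content, and 3.87% of all genes tested had a correlation above 0.8. The mean deviation of the 10 genes ran from −0.52 to 0.44 in cKO and from −0.15 to 0.10 in control libraries. The correlations thus rest mostly on the cKO pools and show little about the control genotype.

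The sequences before the transcription starts are shown because the genes moved by different amounts, and because an E-box (CACGTG) recurs in them. The 100 bases just upstream of the first annotated base of 6 genes are given 5′ to 3′ on the strand of the gene, from RefSeq promoter sequences on GRCm38.p6, with CACGTG in capitals. They span chr10:88459469-88459568 (plus strand) for *Sycp3*, chr9:50561326-50561425 (minus) for *Tex12*, chr3:102936101-102936200 (minus) for *Sycp1*, chr3:95559577-95559676 (plus) for *Hormad1*, chr15:89410504-89410603 (minus) for *Syce3* and chr13:73937785-73937884 (minus) for *Trip13*.
Sycp3: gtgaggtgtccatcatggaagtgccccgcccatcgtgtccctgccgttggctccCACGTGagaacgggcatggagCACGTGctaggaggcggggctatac
Tex12: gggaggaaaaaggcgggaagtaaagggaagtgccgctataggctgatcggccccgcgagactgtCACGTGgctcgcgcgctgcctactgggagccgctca
Sycp1: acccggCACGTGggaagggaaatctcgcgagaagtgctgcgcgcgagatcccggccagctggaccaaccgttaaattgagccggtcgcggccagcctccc
Hormad1: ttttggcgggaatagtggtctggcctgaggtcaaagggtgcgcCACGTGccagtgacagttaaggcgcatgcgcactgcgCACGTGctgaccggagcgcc
Syce3: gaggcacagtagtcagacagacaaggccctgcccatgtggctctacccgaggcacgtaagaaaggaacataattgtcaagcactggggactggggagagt
Trip13: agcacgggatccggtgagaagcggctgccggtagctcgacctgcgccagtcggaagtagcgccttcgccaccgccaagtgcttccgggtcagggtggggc

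*Sycp3* and *Hormad1* each hold 2 copies of CACGTG in this stretch, *Tex12* and *Sycp1* hold 1, and *Syce3* and *Trip13* hold none. Over the full window of 250 bases before and 50 after the start, all 10 genes had a RefSeq sequence and 5 held CACGTG (the above 4 and *Syce2*), where 8.09% of 27025 genes did, and 11.5% of the 11262 genes tested in these ovaries that had a sequence. The motif is its own reverse complement, so both strands were read at once. It contains a CG, and the windows that held it had 15 to 33 CG sites. The median over all windows was 7 (quartiles 3 and 20), and the *Trip13* window, without the motif, had 34. The part of CG content in these counts was not tested. CNCCTCAG, searched on both strands, was present in 4 of the 10 (*Sycp1*, *Syce2*, *Tex12*, *Hormad2*) and in 9.12% of all genes, and it cannot share a base with the E-box. A further motif, GGCGCC, which can share 1 base with the E-box, was present in 2 of the 10 (*Sycp2*, *Tex12*) and in 13.4% of all genes. TGACGTCA was found in none of the 10 and in 2.03% of all genes. The 5 genes with the E-box had Log2FC values from −1.36 to −0.34, and the 5 without it from −1.66 (*Syce3*) to 0.49 (*Trip13*). A link between the motif and the response was not tested. The presence of letters in a window is a description, and no factor binding was measured.

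Lists of 28 other genes covered the same structures, HORMA-domain and TRIP13 partners outside the axis, axis surveillance and meiotic entry. All were tested, 10 were downregulated and 2 were upregulated (4.06% and 6.11% of all genes tested), with a median Log2FC of −0.20. These pooled counts are therefore not about the axis and synaptonemal complex alone. The 4 meiotic cohesin subunits, which form the core under SYCP2 and SYCP3, all had an FDR below 0.05 and were lower, and 3 were downregulated. *Rad21l*, a kleisin of the meiotic axis, was at 19.9, 11.8, 19.3 and 29.1 CPM in control and 1.67, 1.64, 3.04 and 7.10 CPM in *Bmpr1a*-cKO libraries (Log2FC −2.49, FDR = 8.05e-05, edgeR), a more negative Log2FC than that of any of the 10 genes. *Smc1b* (Log2FC −1.05, FDR = 5.59e-05) and *Stag3* (Log2FC −0.80, FDR = 8.79e-05) were also downregulated, and the other meiotic kleisin *Rec8* (Log2FC −0.49, FDR = 0.000288) was short of the fold threshold (edgeR). *Six6os1*, the partner of SYCE1 in the central element, was at 43.5, 36.6, 49.5 and 51.9 CPM in control and 26.0, 31.8, 33.3 and 39.4 CPM in cKO libraries. Its Log2FC of −0.47 (FDR = 0.00836, edgeR) equalled that of *Sycp1* and was not past the fold threshold, and its exons share bases with *Six6* on the opposite strand.

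Of the 4 factors that sit on the axis to promote DNA breaks, 3 were downregulated, *Iho1*, the HORMAD1 partner (Log2FC −1.59, FDR = 0.000113), *Ankrd31* (Log2FC −1.43, FDR = 0.00025) and *Mei4* (Log2FC −0.77, FDR = 0.0104, edgeR). *Rec114*, which forms a complex with MEI4, had a Log2FC of −0.13 (FDR = 0.577, edgeR), and its exons share bases with *Nptn* on the opposite strand. The 5 HORMA-domain proteins and partners that act outside the axis held no called gene. *Mad2l1*, the MAD2 that TRIP13 remodels in dividing cells, was higher by the FDR alone (Log2FC 0.44, FDR = 0.0062, edgeR), while *Mad2l1bp*, which presents MAD2 to TRIP13, had a Log2FC of 0.06 (FDR = 0.747). *Mad2l2* (Log2FC 0.20, FDR = 0.161), *Atg13* (−0.03, FDR = 0.81) and *Atg101* (0.04, FDR = 0.747) did not pass. Among 4 genes whose products associate with the complex, *Plk1*, a kinase of its disassembly and of mitosis, was upregulated from between 42.8 and 45.1 CPM in controls to between 66.2 and 82.4 CPM in cKO libraries (Log2FC 0.82, FDR = 1.41e-06, edgeR), with exon bases shared with *Gm44985* on the opposite strand. *Hspa2* was lower by the FDR alone (Log2FC −0.26, FDR = 0.0196), and *Fkbp6* (0.06, FDR = 0.762) and *Skp1a* (−0.02, FDR = 0.849) did not pass.

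Of 4 genes that monitor unsynapsed axes, the kinase *Atr* was downregulated, at 210 to 258 CPM in control libraries against 116 to 163 CPM in cKO libraries (Log2FC −0.69, FDR = 5.38e-05, edgeR), with exon bases shared with neighbouring annotated transcripts. *Chek2*, a checkpoint kinase of oocytes, was higher by the FDR alone (Log2FC 0.45, FDR = 0.00485, edgeR), and *Brca1* (−0.15, FDR = 0.0786) and *Topbp1* (−0.09, FDR = 0.328) did not pass. Of 6 genes of meiotic entry, 3 were downregulated, *Meiosin*, a partner of STRA8 (Log2FC −1.84, FDR = 2.52e-06), *Meioc* (Log2FC −1.72, FDR = 1.08e-05) and *Zglp1* (Log2FC −1.28, FDR = 0.000726), and *Dazl*, a germ cell RNA-binding protein, was upregulated (Log2FC 0.63, FDR = 0.00101, edgeR). *Ythdc2* was lower by the FDR alone (Log2FC −0.49, FDR = 9.77e-05). *Stra8*, the transcription factor of meiotic entry, was at 96.0 to 153 CPM in *Bmpr1a*-cKO and 98.2 to 120 CPM in control ovaries and did not pass (Log2FC 0.30, FDR = 0.0731, edgeR).

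**Figure D5:**
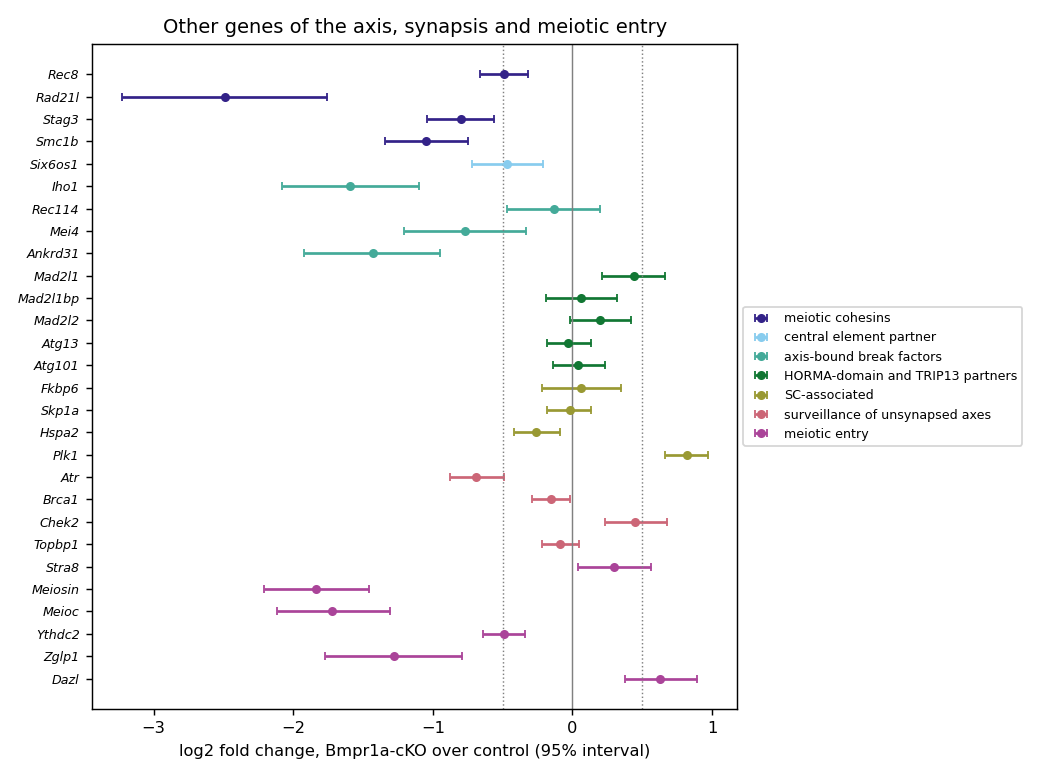
Log2 fold change of *Bmpr1a*-cKO over control ovaries with its 95% interval from edgeR (horizontal axis, n = 4 libraries per genotype). The vertical axis holds 28 further genes of the axis, synapsis, HORMA-domain partners outside the axis and meiotic entry, coloured by list. Dotted lines mark ±0.5. *Rad21l* lies farthest to the left at −2.49, and *Plk1* farthest to the right at 0.82.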

How the data were processed

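Ovary RNA was sequenced as strand-specific paired-end libraries. The authors trimmed reads with Trimmomatic 0.39, checked them with FastQC 0.11.9, mapped them to mm10 with STAR 2.5.2, and deposited for each library whole-number counts per gene symbol, without normalization. They also deposited a table of signal, CPM for a filtered set of genes, whose gene set served here only as an alternative filter. The annotation and the strand setting of the counting are not given in the sources used here.

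From the counts, low genes were removed with filterByExpr (grouped by genotype), library sizes were corrected by TMM, and the genotypes were compared in edgeR 4.0.16 (quasi-likelihood F test, R 4.3.3, two-sided, Benjamini-Hochberg adjustment over the 14249 genes tested). The SE is the absolute Log2FC over the square root of F. The depth was 8562961 to 15365052 counts per library, and floors of 3 counts cover counting error only. CPM of single libraries are TMM-scaled without a prior count. Log2 values used to compare spread and correlation, and the counts in ratios, carried a prior of 2. Ratios were compared by exact permutation (70 arrangements, two-sided). Positions and exon bases came from GENCODE vM21. Litters are not given per library and were not a term. The fit was tested on simulated data.

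The genes named are the 10, the pathway lists, *Bmpr1a*, *Ddx4* and the 5 genes most correlated with the mean of the 10; cell type markers and *Chpt1*, which overlaps *Sycp3*, were named after their values were seen. Members and lists were chosen with earlier results of these data known. The alternatives were the edgeR likelihood ratio test, DESeq2 1.42.0, RLE, library size, germ cell marker and *Ddx4* scaling, other filters and thresholds, a prior of 0.5 for ratios, the replicate block, and each library left out.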

Additional observations from a re-analysis of the deposited data

Results flagged for a closer look

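In 54 sets of 4 values (a gene's level or a ratio in 1 genotype), 3 had a library set apart from the other 3 by more than the 95% critical value of Dixon's test, and chance gives about 1 in 20. The log2 ratio of *Sycp1* to *Sycp3* was 0.19 in control library 1, against 0.36 to 0.39 in the other control libraries. The log2 ratio of *Hormad1* to *Sycp3* was 0.01 in control library 3, against −0.16 to −0.14. The log2 ratio of *Sycp2* to *Sycp3* was 0.23 in *Bmpr1a*-cKO library 1, against −0.88 to −0.81 in the other cKO libraries. That library had the lowest total count (8562961) and the lowest *Sycp3* level (13.0 CPM), and without it the difference between the genotypes in this ratio was 0.15 instead of 0.42.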

How the results depend on the processing

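No direction of the 10 genes reversed under any alternative, and *Sycp2*, *Sycp3*, *Syce1*, *Syce3* and *Tex12* were downregulated in each one that tested them at the same thresholds; the requirement of 10 counts in every library removed *Syce3* and left 4. With the FDR alone 8 were lower, an absolute Log2FC above 1 left 4 (without *Syce1*), and leaving out single libraries gave 5 to 7. Over all genes 1449 were called, against 726 with *Ddx4* scaling, 4242 by the FDR alone, 501 above an absolute Log2FC of 1, and 1288 to 1627 without single libraries. In edgeR, scaling to *Ddx4* lifted the FDR above 0.05 for *Sycp1* (0.129), *Syce2* (0.368), *Hormad2* (0.262) and *Trip13* (0.469), left *Hormad1* above it (0.285), and scaling to germ cell markers did so for *Sycp1* (0.141), *Syce2* (0.434) and *Hormad2* (0.307) and called *Trip13* upregulated (0.0466); the cause was not tested. *Hormad1* passed the FDR with the likelihood ratio test (0.0339), library size alone (0.0319) and no filter (0.0216). Same-numbered control and cKO libraries had correlations of 0.198, 0.161, 0.108 and −0.087 in their deviations, and differently numbered ones had −0.198 to 0.182. What the numbers stand for is not given, so they were not taken to pair libraries, and these correlations do not exclude a pairing. With the replicate block 5 of the 10 were downregulated and 1457 of all genes were called. All 10 had a lower FDR in edgeR than without the block, for example 0.000198 for *Sycp1*, 0.00838 for *Hormad1* and 0.00159 for *Hormad2*. Paired by number, the ratios between genes that separated, at 1.02, 0.82, 1.11, 1.12 and 0.88, had p = 0.125 by exact sign flips, the smallest these can give. Without single libraries the ratio of *Syce1* to *Syce3* changed by 0.66 to 0.97, *Syce2* to *Tex12* by 0.94 to 1.27 and *Trip13* to *Hormad1* by 0.72 to 1.02. Depth limits *Syce3* most, with 2 to 49 reads per library.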
